A study of Oryctolagus cuniculus with 6 samples.

Results

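The TPD52 family was examined in facial nerve RNA of rabbits with facial nerve injury (FNI), with and without an I-125 seed. Its members were taken by gene symbol, which gave 3 genes, TPD52, TPD52L1 and TPD52L2, of the 17396 genes listed for each library. All 6 animals were male Japanese white rabbits a few months old, labelled Wild Type. In the FNI group (3 libraries, ctrl in the labels), the main trunk of the left facial nerve had been cut. In the FNI+I-125 group (3 libraries, Itrans in the labels), the nerve had been cut and a radioactive I-125 seed had been placed beside it when the skin was closed. Both groups therefore carried the same cut, and all nerves were collected on day 14. Uninjured nerve was not analysed here, so no value below compares an injured nerve with an intact nerve. TPD52L1 was chosen on this contrast, in which it had the smallest p-value of all genes tested. Its values are therefore given as a description, without a test, and the question addressed was whether its low level with the seed was shared by the other members of the family.

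TPD52 family proteins are small cytoplasmic proteins with a coiled-coil segment, through which they bind themselves and each other. They are found on membranes of the secretory and endosomal pathways, and TPD52, named after its high level in tumors, is abundant in secretory epithelia such as exocrine glands. TPD52L1 has been linked to the G2 and mitosis phases of the cell cycle and to the stress kinase ASK1, and TPD52L2 to small transport vesicles that carry Rab GTPases.

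Total counts ran from 16031151 to 16798012 per library. Of the genes listed, 14003 passed a filter on low counts, and all 3 family members were among them. With edgeR's quasi-likelihood test and Benjamini-Hochberg adjustment over these genes, 0 genes (0%) had an adjusted p under 0.05, and 2375 genes (17.0%) had an unadjusted p under 0.05. With limma-voom, 0 genes passed the adjusted threshold, and with DESeq2 it was 529 higher (3.71%) and 355 lower (2.49%) of 14240 genes. Values per library are counts scaled to equal library size (CPM) after TMM normalization, which corrects for differences in library composition, and they are listed in the order of replicates 1, 2 and 3. The libraries differed in tissue content. Skeletal muscle markers were high in FNI+I-125 replicates 1 and 2, salivary gland markers in FNI replicate 2 and Schwann cell markers in FNI replicate 3, and these values are given with the family below.

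TPD52L1 was low in every nerve with the seed. It was counted 435, 551 and 455 times without the seed and 68, 77 and 91 times with it. In CPM these were 25.5, 34.7 and 26.9 against 4.44, 4.69 and 5.34. All FNI+I-125 libraries lay below all FNI libraries, and the lowest FNI library was 4.77 times as high as the highest FNI+I-125 library. The group values were 29.0 ± 4.97 CPM (SD, n = 3) and 4.82 ± 0.464 CPM (SD, n = 3). The log2 fold change was -2.59 (standard error 0.19, 95% interval from -3.06 to -2.12), which is a level lower by a factor of 6.01. The count of 68, the smallest of the 6, had a 95% Poisson interval from 52.8 to 86.2, and the count of 435, the smallest in the FNI group, from 395 to 478. These intervals cover counting error only. Counting error was thus far smaller than the distance between the groups. In bulk tissue, fewer cells that express a gene and less RNA per cell cannot be told apart.

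**Figure D1:**
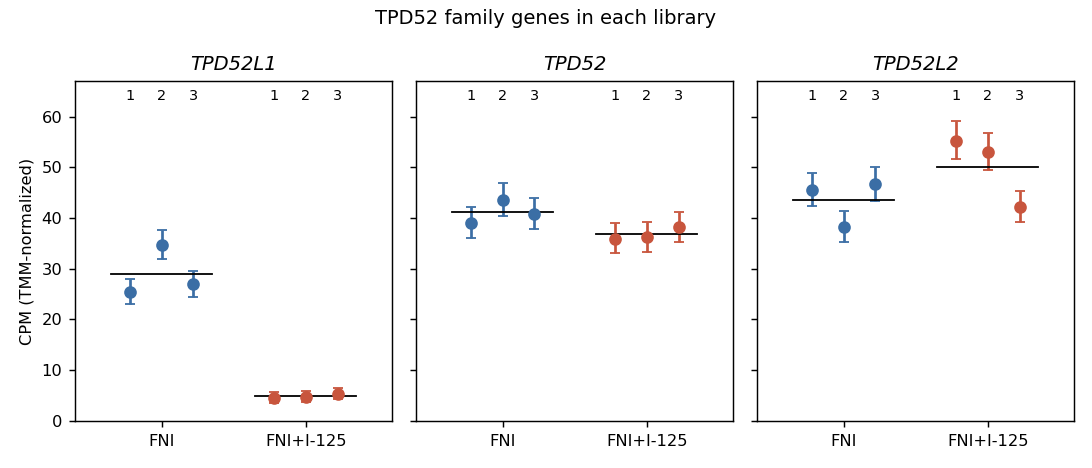
CPM of TPD52L1, TPD52 and TPD52L2 in each library on a linear axis, with replicate numbers along the top, 95% Poisson intervals as bars and group means as lines. TPD52L1 fell into separate ranges of 25.5 to 34.7 CPM and 4.44 to 5.34 CPM, whereas TPD52 (36.0 to 43.6 CPM) and TPD52L2 (38.2 to 55.2 CPM) kept to a narrow band over both groups.

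TPD52, the member known from secretory cells, stood at 39.0, 43.6 and 40.8 CPM without the seed and at 36.0, 36.2 and 38.2 CPM with it. It was counted 666 to 692 times per FNI library and 550 to 650 times per FNI+I-125 library. The FNI+I-125 libraries all lay below the FNI libraries, but the gap was narrow, with the lowest FNI library 1.02 times as high as the highest FNI+I-125 library. Across all genes tested, 27.2% had groups without overlap, and 12.3% were lower without overlap. The group values were 41.1 ± 2.31 CPM and 36.8 ± 1.21 CPM (SD, n = 3 each). The log2 fold change of TPD52 was -0.16 (standard error 0.11, 95% interval from -0.42 to 0.10), and it did not pass the test (edgeR, adjusted p = 0.429). The exact permutation test of its log2 CPM, two-sided, gave p = 0.1, the smallest p that 3 libraries against 3 allow.

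TPD52L2, the member found on small transport vesicles, stood at 45.6, 38.2 and 46.6 CPM without the seed and at 55.2, 53.0 and 42.2 CPM with it. FNI+I-125 replicates 1 and 2 were above all FNI libraries, and replicate 3 lay inside the FNI range, so the groups overlapped. The group values were 43.5 ± 4.61 CPM and 50.2 ± 6.97 CPM (SD, n = 3 each). The log2 fold change of TPD52L2 was 0.21 (standard error 0.15, 95% interval from -0.17 to 0.58), with an adjusted p of 0.481 in edgeR's test and p = 0.3 in the exact permutation test. Neither p shows that TPD52 or TPD52L2 was unchanged. The intervals of both genes leave room for differences down to -0.42 for TPD52 and up to 0.58 for TPD52L2 on the log2 scale.

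Ratios between the members within a library do not depend on the normalization, so they address the question directly. The log2 ratio of TPD52L1 to TPD52 counts was -0.61, -0.33 and -0.60 without the seed and -3.01, -2.94 and -2.83 with it. It stood at -0.51 ± 0.16 and -2.93 ± 0.09 (SD, n = 3 each), a difference of -2.41, or a ratio lower by a factor of 5.32 with the seed. The spread of this ratio within the groups was thus small beside the distance between them. The log2 ratio of TPD52L1 to TPD52L2 was -0.84, -0.14 and -0.79 against -3.63, -3.49 and -2.98, a difference of -2.77, or a factor of 6.84. No p is given for these ratios because TPD52L1 was chosen on the same contrast. The ratio of TPD52 to TPD52L2, of which neither was chosen for its own value, was -0.22, 0.19 and -0.19 against -0.62, -0.55 and -0.15 on the log2 scale. Its difference of -0.36, beside within-group SDs of 0.23 and 0.26, did not pass the test, and the groups overlapped (exact permutation test, two-sided, p = 0.3).

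**Figure D2:**
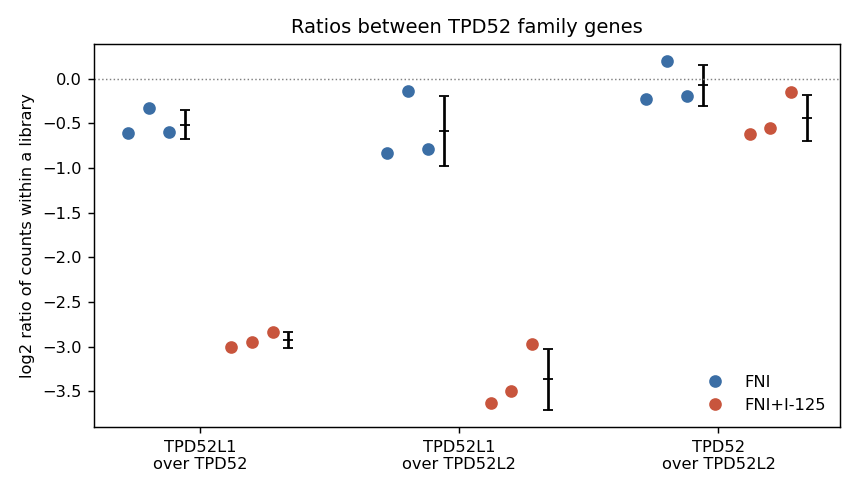
Log2 ratio of the counts of each pair of family members within each library, with group means and SDs as black bars. Both ratios with TPD52L1 on top separated the groups, by -2.41 and -2.77, and the ratio of TPD52 to TPD52L2 did not (-0.36, groups overlapping).

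Of all reads counted on the family, TPD52L1 took 23.2%, 29.8% and 23.5% without the seed and 4.65%, 4.99% and 6.23% with it. These are shares of reads and are not corrected for transcript length. The 95% Wilson intervals of these shares reached no lower than 21.3% without the seed and no higher than 7.59% with it, and they cover counting error only. The reads of the whole family, TPD52L1 included, summed to 114 ± 3.28 CPM (SD, n = 3) without the seed and to 91.8 ± 5.30 CPM (SD, n = 3) with it. TPD52 and TPD52L2 together stood at 84.6 ± 2.85 CPM and 86.9 ± 5.76 CPM (SD, n = 3 each), and the range with the seed, from 80.4 to 91.2 CPM, enclosed the range without it, from 81.8 to 87.5 CPM. The summed level of the other members thus differed by less than the replicate spread. This sum joins the lower mean of TPD52 with the higher mean of TPD52L2, so it does not show that either gene was unchanged.

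TPD52 and TPD52L2 varied less between nerves of the same group than the median gene. The pooled within-group SD of log2 CPM was 0.07 for TPD52, 0.19 for TPD52L1 and 0.19 for TPD52L2, against a median of 0.30 over all genes tested. A smaller SD than that of TPD52 was found for 1.66% of the genes. For TPD52L1 and TPD52L2, 29.1% and 26.9% of the genes had a smaller SD. The log2 fold change of TPD52L1 was below that of nearly all genes, with 138 of the 14003 genes lower. That of TPD52 had 34.4% of all genes below it and that of TPD52L2 67.4%. TPD52L1 was chosen by its p-value, which a small SD and a large difference both lower. Its SD and its position are therefore not findings. The log2 fold changes of TPD52 and TPD52L2 lay in the middle of the distribution.

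The genes whose log2 CPM followed TPD52L1 most closely over the 6 libraries were THRA (Pearson's r = 0.990), LYPD1 (0.989), BEX1 (0.987), DQX1 (0.985) and TMEM120A (0.983). The 6 libraries fall into the 2 groups, so that any gene with a steady difference between the groups reaches a high r, and 48 of 12781 named genes lay above 0.95. THRA, a nuclear receptor for thyroid hormone, stood at 129, 140 and 135 CPM without the seed and at 93.2, 90.9 and 88.1 CPM with it. LYPD1, a membrane-anchored protein that binds acetylcholine receptors, stood at 6.09, 8.19 and 7.86 CPM against 2.09, 2.37 and 2.82 CPM. BEX1, a small protein best known from neurons, had 11, 11 and 14 counts against 0, 0 and 1. The closest opposite patterns were those of RELT (r = -0.997), a receptor of the TNF receptor family, TAP2 (-0.991), a subunit of the peptide transporter for antigen presentation, and RABGGTB (-0.988), a subunit of the enzyme that attaches lipids to Rab GTPases. RABGGTB stood at 15.0, 14.4 and 15.2 CPM against 19.4, 18.3 and 18.9 CPM. Within the family, r with TPD52L1 was 0.891 for TPD52 and -0.643 for TPD52L2, and 1.71% of all genes had a higher r than TPD52.

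Proteins reported to bind the family were followed through a list of 15 genes. STK11 was not listed by symbol in the data, and the other 14 passed the filter. At an unadjusted p under 0.05, 3 genes were higher and 1 was lower, against 9.23% and 7.73% of all genes tested in these directions, and 0 passed the adjusted threshold. With DESeq2, YWHAG was the gene of the list past the adjusted threshold (DESeq2, adjusted p = 0.0342). The lower gene, MAL, was lost without FNI replicate 3, FNI+I-125 replicate 1 or FNI+I-125 replicate 2, which left 0. The median log2 fold change of the list was -0.04, against 0.01 over all genes tested. The 14-3-3 proteins, small dimers that hold phosphorylated partners, are encoded by 6 YWHA genes of the list. Of these, 4 were higher and 1 was lower without overlap between the groups, where 14.8% and 12.3% of all genes were so. YWHAG stood at 130, 149 and 145 CPM without the seed and at 197, 176 and 187 CPM with it (log2 fold change 0.40, standard error 0.12). YWHAH had a log2 fold change of 0.72 (standard error 0.24), which was 0.44 without FNI+I-125 replicate 2. YWHAB (0.25), YWHAZ (0.23), YWHAE (-0.02) and YWHAQ (-0.21) had log2 fold changes closer to 0. Without FNI replicate 3 that of YWHAQ was -0.14 and that of YWHAE 0.06.

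The MAL family of tetraspan membrane proteins includes partners of TPD52 in apical transport. MAL2, the epithelial form, had 141, 123 and 72 counts without the seed and 18, 35 and 273 with it. It was highest in FNI+I-125 replicate 3, the library with the most epithelial markers, and its log2 fold change of -0.07 (standard error 0.97) was -2.03 without that library. MAL, a myelin component, had 368, 166 and 2445 counts against 68, 133 and 261. Its log2 fold change of -2.66 (standard error 1.08) was of a size with that of TPD52L1 but was -0.81 without FNI replicate 3. PLP2, a related tetraspan protein, had 912, 655 and 675 counts against 1059, 1017 and 1138, a log2 fold change of 0.56 (standard error 0.15). The groups of PLP2 did not overlap in CPM. ANXA6, a calcium-dependent membrane binding protein, had a log2 fold change of -0.20 (standard error 0.20), which was -0.37 without FNI+I-125 replicate 1 and -0.10 without replicate 2. ATM, the kinase that signals DNA double-strand breaks, stood at -0.17 (standard error 0.18), which ran from -0.30 without FNI replicate 1 to -0.06 without FNI replicate 3. The values of RAB5C (0.23, standard error 0.14) and RAB14 (-0.13, standard error 0.15) were of the same small size, and without a single library they came as close to 0 as 0.13 for RAB5C (FNI+I-125 replicate 2) and -0.0020 for RAB14 (FNI+I-125 replicate 1). The partner genes thus held no common direction with TPD52L1.

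**Figure D3:**
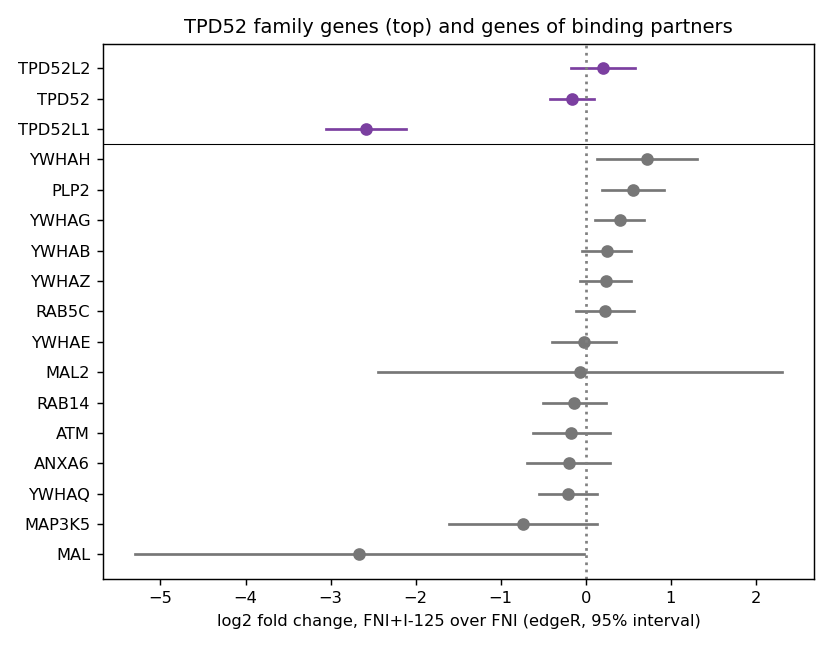
Log2 fold change of FNI+I-125 over FNI with 95% intervals from edgeR for the 3 family members (purple, top) and 14 genes of binding partners (grey). TPD52L1 was chosen on this contrast and its interval is shown as a description, the intervals of TPD52 and TPD52L2 included 0, and MAL and MAL2 had the widest intervals among the partners.

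ASK1, encoded by MAP3K5, is a stress-activated kinase upstream of JNK and p38 and a reported partner of TPD52L1. MAP3K5 had 429, 404 and 894 counts without the seed and 298, 269 and 445 with it. The groups overlapped, and its log2 fold change of -0.74 (standard error 0.36, edgeR, adjusted p = 0.329) was -0.31 without FNI replicate 3. In the list of 20 genes of this pathway, TRAF2 was not listed by symbol in the data, and the other 19 passed the filter. At the unadjusted p, 4 were higher and 2 were lower, against 9.23% and 7.73% of all genes tested, and the median log2 fold change was 0.10. These counts ran from 2 to 3 higher and from 0 to 2 lower with each library left out in turn, reaching 2 higher without FNI+I-125 replicate 1 and 0 lower without FNI replicate 3 or FNI+I-125 replicate 3. A single lower gene was left without FNI replicate 1, FNI+I-125 replicate 1 or FNI+I-125 replicate 2. TXN, the thioredoxin that holds ASK1 inactive, stood at 67.2, 71.4 and 56.6 CPM against 134, 269 and 152 CPM, a log2 fold change of 1.51 (standard error 0.29, edgeR, adjusted p = 0.280). All FNI+I-125 libraries lay above all FNI libraries. TXN passed with DESeq2 (adjusted p = 0.00102). MAPKAPK2, a kinase downstream of p38, also passed in DESeq2 (adjusted p = 0.0351), with a log2 fold change of 0.58 (standard error 0.15) in edgeR. DUSP1, a phosphatase that switches off these kinases, had a log2 fold change of 1.34 (standard error 0.54), which was 0.56 without FNI+I-125 replicate 1. MAP2K6, a kinase upstream of p38, had 205, 209 and 291 counts against 150, 159 and 118, a log2 fold change of -0.68 (standard error 0.23).

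The Rab GTPases, which mark the membranes that TPD52L2 vesicles travel between, mostly had small log2 fold changes. Of 30 genes chosen, RAB1B and RAB3A were not listed by symbol in the data, and the other 28 passed the filter. At the unadjusted p, 3 were higher and 0 were lower, against 9.23% and 7.73% of all genes tested, and the median log2 fold change was 0.07. The share of higher Rab genes was thus near that of all genes. The count of 3 was 0 without FNI replicate 1, FNI replicate 3 or FNI+I-125 replicate 2, and 1 without any other library. The count of lower genes was 1 without FNI replicate 3 or FNI+I-125 replicate 3. RAB26, a Rab of secretory granules named after its value was seen, had 18, 144 and 4 counts without the seed and 10, 12 and 9 with it, and its highest value lay in the library with the most gland markers. RAB1A, which acts between endoplasmic reticulum and Golgi, had a log2 fold change of 0.45 (standard error 0.16), and RAB11B of the recycling endosome -0.33 (standard error 0.17), which was -0.18 without FNI+I-125 replicate 1. RAB7A of late endosomes had a value of 0.32 (standard error 0.19), which was 0.10 without FNI+I-125 replicate 2. Among 19 tested genes of regulated exocytosis, 1 was higher and 1 was lower at the unadjusted p, against 9.23% and 7.73% of all genes tested, and the median was -0.01. MYRIP, which ties Rab27 granules to myosin, had 260, 307 and 370 counts without the seed and 148, 155 and 120 with it. Its log2 fold change was -1.11 (standard error 0.22; DESeq2, adjusted p = 0.00268). UNC13D, a priming factor for granule release in blood cells, had 35, 47 and 15 counts against 145, 104 and 132, a log2 fold change of 2.00 (standard error 0.47; DESeq2, adjusted p = 0.00603). With each library left out, the exocytosis list had 1 to 2 higher and 1 to 3 lower genes, the most without FNI+I-125 replicate 2 (2 higher, 3 lower), and also 2 higher without FNI replicate 3 and 2 lower without FNI replicate 2. The more abundant VAMP2 (-0.47, standard error 0.20, and -0.31 without FNI replicate 3), VAMP3 (0.03, standard error 0.12) and STX2 (-0.23, standard error 0.11) did not pass with either tool.

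TPD52 is also found on lipid droplets. In the list of 20 lipid droplet genes, PLIN1, PLIN3, PLIN4, PLIN5 and PNPLA2 were not listed by symbol in the data. Of the other 15, 14 passed the filter. At the unadjusted p, 1 was higher and 2 were lower, against 9.23% and 7.73% of all genes tested, and the median log2 fold change was -0.46. PLIN2, the droplet coat protein of most cell types, stood at 50.4, 52.8 and 42.6 CPM without the seed and at 115, 88.9 and 96.0 CPM with it. It was higher without overlap, with a log2 fold change of 1.04 (standard error 0.15; DESeq2, adjusted p = 1.8e-05). Several genes known from fat cell droplets had negative values with a wide spread. CIDEA had a log2 fold change of -2.15 (standard error 1.14), LIPE -2.02 (standard error 0.81), DGAT2 -1.18 (standard error 0.53) and FITM2 -0.99 (standard error 0.39). Without FNI replicate 3 these were -0.57 for CIDEA and -1.22 for LIPE, and without FNI replicate 2 that of DGAT2 was -0.67. The count of higher genes was 2 without FNI replicate 1, FNI replicate 2 or FNI+I-125 replicate 3. The count of 2 lower genes ran from 0 to 5 with each library left out, reaching 0 without FNI replicate 2, FNI replicate 3, FNI+I-125 replicate 1 or FNI+I-125 replicate 2, 4 without FNI replicate 1 and 5 without FNI+I-125 replicate 3.

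Genes of G2 and mitosis, the phases in which TPD52L1 protein has been described, were mostly higher with the seed, opposite to TPD52L1. Of 20 genes, all of which passed the filter, 13 were higher and 1 was lower at the unadjusted p, against 9.23% and 7.73% of all genes tested, and the median log2 fold change was 1.25. Without overlap between the groups, 15 were higher, where 14.8% of all genes were so. With DESeq2, CCNB1, CCNB2, KIF11 and KIF20A passed the adjusted threshold, all higher, and 0 genes did with edgeR. The count of 13 was 3 without FNI+I-125 replicate 1, 6 without FNI replicate 1 and 8 without FNI replicate 3. KIF20A, a kinesin of cell division, had 131, 132 and 75 counts without the seed and 365, 216 and 292 with it, a log2 fold change of 1.41 (standard error 0.34; DESeq2, adjusted p = 0.012). TOP2A, the topoisomerase of dividing cells, had a log2 fold change of 0.75 (standard error 0.26), and CENPF, a kinetochore protein, 1.16 (standard error 0.42), which was 0.70 without FNI+I-125 replicate 1. CDC25B, a phosphatase that starts mitosis, was the lower gene, with 548, 563 and 582 counts against 439, 391 and 477 (log2 fold change -0.34, standard error 0.13). It no longer passed without FNI replicate 1, FNI replicate 2, FNI+I-125 replicate 2 or FNI+I-125 replicate 3, which left 0 lower genes.

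**Figure D4:**
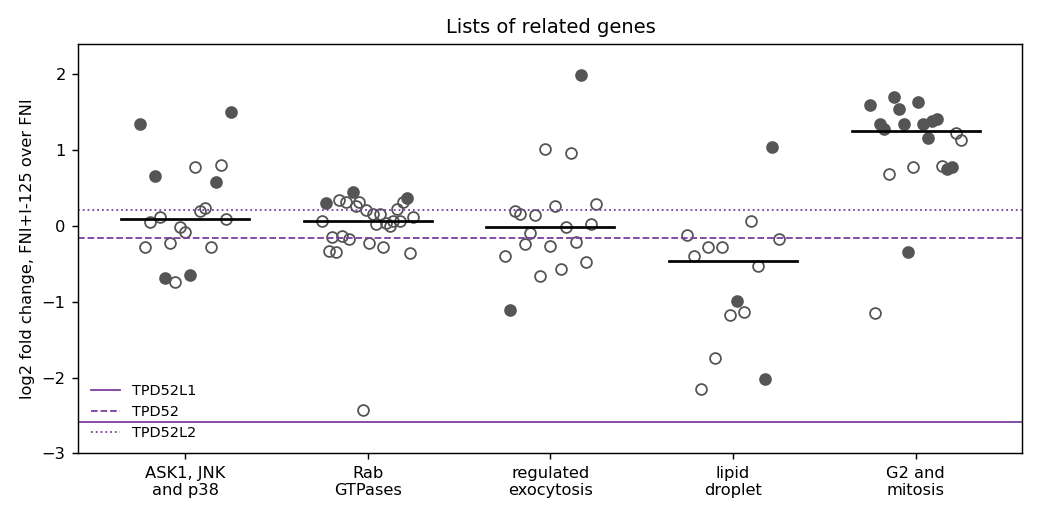
Log2 fold change of FNI+I-125 over FNI for each gene tested in 5 lists of related genes, filled where the unadjusted p was under 0.05, with list medians as black bars and the 3 family members as purple lines. The list medians were 0.10, 0.07, -0.01, -0.46 and 1.25 from left to right, and all points lay above the line of TPD52L1 at -2.59.

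Since TPD52 family genes are known from epithelia, TPD52L1 was set beside markers of other cells in the samples. Of 20 epithelial markers, 18 were tested, 0 passed the unadjusted p in either direction (5 were lower without FNI+I-125 replicate 3), and their median log2 fold change was -0.30. Their summed level was 1049, 583 and 237 CPM without the seed and 138, 119 and 1242 CPM with it. Epithelial markers were thus highest in a library with the seed. EPCAM, an adhesion protein of epithelial cells, had 817, 392 and 3 counts without the seed and 41, 337 and 935 with it. KRT18, a keratin of simple epithelia, had 923, 1041 and 0 counts against 61, 4 and 573. In FNI replicate 3, where EPCAM and KRT18 were at or near 0, TPD52L1 had 455 counts, and in FNI+I-125 replicate 3, where EPCAM was highest, it had 91. EPCAM and KRT18 are named after their values were seen. The summed level of salivary gland markers ran from 1193 to 51330 CPM without the seed and from 1087 to 2014 CPM with it, and the most abundant were DNASE1, CST3 and PIP. DNASE1 stood at 2419, 48086 and 15.8 CPM without the seed and at 573, 16.2 and 13.4 CPM with it. CST3 stood at 457, 692 and 666 CPM against 294, 1811 and 939 CPM. CST3 thus made up most of the sum in FNI replicate 3 and in FNI+I-125 replicates 2 and 3. Of 12 gland markers tested, 3 were lower at the unadjusted p, against 7.73% of all genes, namely AQP5, CLDN10 and SLC12A2, which are named after their values were seen. With each library left out, 2 to 6 were lower, with 6 without FNI replicate 3, 5 without FNI+I-125 replicate 1 and 2 without FNI replicate 1, FNI replicate 2 or FNI+I-125 replicate 2. TPD52L1 differed by a factor of 1.36 between the FNI libraries. Whether gland or epithelial content had a part in the TPD52L1 difference was not tested.

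Schwann cell markers, which define the labelled tissue, were present in all libraries and lower in all FNI+I-125 libraries. Their summed level was 9049, 5244 and 42780 CPM without the seed and 1058, 4686 and 2566 CPM with it. All 20 markers had a negative log2 fold change, with a median of -1.81, and 7 passed the unadjusted p, against 7.73% of all genes tested as lower. This count was 1 without FNI replicate 3 or FNI+I-125 replicate 1. The summed level was highest in FNI replicate 3, whereas TPD52L1 stood there at 26.9 CPM, between the other FNI libraries. Macrophage markers went the other way, from 352 to 1392 CPM without the seed and from 1811 to 2847 CPM with it. Of 11 tested, 5 were higher at the unadjusted p, among them LAPTM5 and CD68, against 9.23% of all genes. This count was 1 without FNI replicate 1 or FNI+I-125 replicate 2, 2 without FNI+I-125 replicate 1 and 3 without FNI+I-125 replicate 3. Endothelial markers ran from 2709 to 3255 CPM against 1973 to 3136 CPM, and 5 of 11 were lower at the unadjusted p, or 3 once FNI+I-125 replicate 3 was left out. VWF, PECAM1 and CDH5, the most abundant of them, did not pass. Adipocyte markers ran from 1741 to 5352 CPM against 1085 to 1753 CPM, and 3 of 10 were lower at the unadjusted p (from 1, without FNI replicates 2 or 3 or FNI+I-125 replicates 1 or 2, to 8, without FNI+I-125 replicate 3), among them ADIPOQ (-0.82, standard error 0.25), the fat cell hormone adiponectin. T and B cell markers (12.6 to 42.6 against 35.4 to 96.8 CPM) and fibroblast markers (71710 to 143100 against 102000 to 194500 CPM) overlapped between the groups. For the endothelial and adipocyte counts, too, the share of lower genes over all genes tested was 7.73%. The part that these differences in marker levels have in the TPD52L1 difference was not tested.

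Skeletal muscle markers reached 5869 and 5103 CPM in FNI+I-125 replicates 1 and 2, against 64.8 CPM in replicate 3 and 85.7 to 187 CPM in the FNI group. The sum of 15 muscle genes therefore separated the libraries with the seed from each other. Of 12 tested, 11 were higher at the unadjusted p, against 9.23% of all genes, and the median log2 fold change was 5.30. With DESeq2, 11 were higher past the adjusted threshold, against 3.71% of all genes, and 0 with edgeR. The groups overlapped for all 12. The unadjusted count was 2 without FNI replicate 2 and 14 without FNI+I-125 replicate 3, where more muscle genes passed the filter. TPD52L1 stood at 4.44 and 4.69 CPM in the libraries with muscle and at 5.34 CPM in the library without it. Whether muscle content had a part in the TPD52L1 difference was not tested. TPD52L2 was higher in the libraries with muscle (55.2 and 53.0 CPM) than in the library without it (42.2 CPM).

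**Figure D5:**
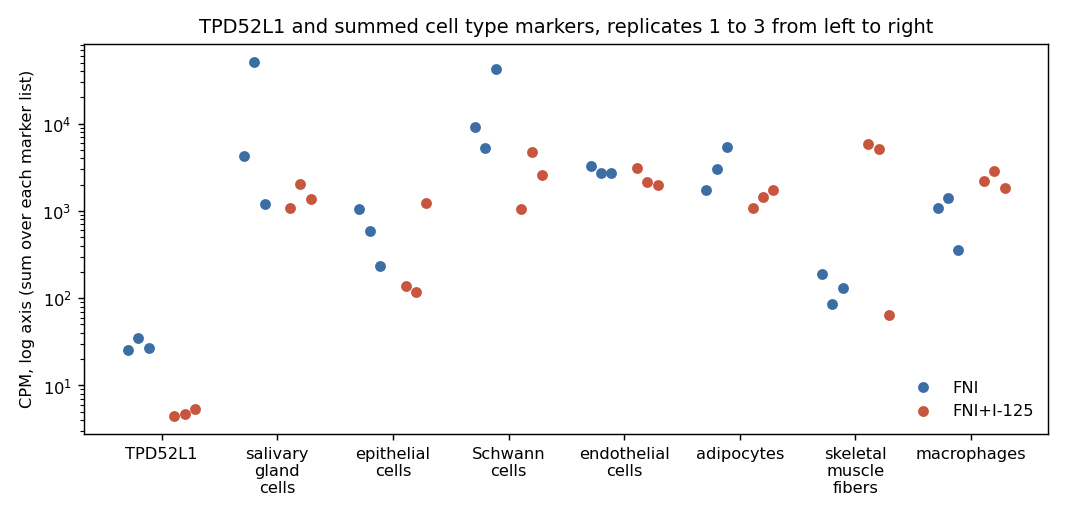
CPM of TPD52L1 and summed CPM of 7 cell type marker lists in each library on a log axis, with replicates 1 to 3 from left to right within each group. Gland, epithelial and muscle sums ranged over factors of 47.2, 10.4 and 90.6 between libraries, with the groups overlapping in each, while Schwann cell sums (5244 to 42780 against 1058 to 4686 CPM) and macrophage sums (352 to 1392 against 1811 to 2847 CPM) separated the groups, as TPD52L1 did.

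Of the genes next to TPD52L1 on its chromosome, NKAIN2 had a log2 fold change near that of TPD52L1. The neighbours were taken from the RefSeq gene table of assembly mOryCun1.1, another assembly than the OryCun2.0 build named for the files, so no positions are given. HDDC2 and HEY2, the nearest named genes on the side before TPD52L1, had log2 fold changes of -0.36 (standard error 0.28) and -0.36 (standard error 0.31), with overlapping groups. That of HDDC2 was -0.13 without FNI+I-125 replicate 3 and that of HEY2 -0.09 without FNI+I-125 replicate 1. RNF217, the nearest on the other side, had 195, 163 and 169 counts without the seed and 276, 240 and 212 with it, a log2 fold change of 0.51 (standard error 0.19). NKAIN2, beyond it, had 131, 128 and 962 counts against 29, 85 and 125. Its log2 fold change of -2.33 (standard error 0.97) was -0.73 without FNI replicate 3. In that table a noncoding gene without a name overlaps TPD52L1, and it was not analysed here, so reads from it cannot be told apart from those of TPD52L1 if the counting ignored strand. Around TPD52, HEY1 (-0.43, standard error 0.40), ZBTB10 (-0.44, standard error 0.23) and ZNF704 (-0.62, standard error 0.26) had log2 fold changes below 0 that did not pass the adjusted threshold (edgeR, adjusted p from 0.296 to 0.577), and STMN2 did not pass the filter. That of HEY1 was -0.18 without FNI+I-125 replicate 2 and -0.92 without FNI+I-125 replicate 3, and that of ZBTB10 was -0.25 without FNI replicate 3.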

How the data were processed

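RNA from 6 rabbit facial nerves, 3 of the FNI group and 3 of the FNI+I-125 group, was analysed. The authors enriched mRNA with oligo dT, prepared libraries with a stranded kit, sequenced them on an Illumina HiSeq instrument and deposited raw counts per gene, 1 file per library. HISAT2 and the build OryCun2.0 are named in the submitters' processing notes, and the counting program is not given in the sources used here. Replicates were not pooled.

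The counts were fitted by edgeR 4.0.16 under R 4.3.3 (TMM normalization, filterByExpr with a minimum count of 10, glmQLFit and glmQLFTest). Tests of FNI+I-125 over FNI were two-sided, and p-values were adjusted over 14003 genes by the Benjamini-Hochberg method. DESeq2 1.42.0, limma-voom (limma 3.58.1), other normalizations and filters, the omission of single libraries and a replicate block served as alternatives. Log2 ratios used counts plus 0.5. The exact permutation test ran over 20 assignments of the libraries. The edgeR, DESeq2 and limma-voom fits were tried on simulated data with known changes, and the exact permutation test was not.

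The members and all gene lists were chosen with earlier results of these data known, and the lists were written from general knowledge. The text names the members, the listed binding partners, in each other list the 3 genes with the highest mean CPM and, for processes, the smallest p in each direction, the 8 genes most like or opposite to TPD52L1 and the nearest neighbours. Of 2992 LOC identifiers, 542 were given a symbol from the RefSeq table. The 25 rows with a spreadsheet date for a name stayed in the tests without being named. A count of 0 allows up to 3 counts. Transcript lengths were not used, so CPM of different genes, such as the most abundant of a list, are compared without correction for length.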

Additional observations from a re-analysis of the deposited data

How the results depend on the processing

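TPD52L1, TPD52 and TPD52L2 kept the direction of their log2 fold change under all 15 alternatives run for each. The log2 fold change of TPD52L1, given without a test because the gene was chosen on this contrast, was -2.60 with DESeq2. With each library left out it ran from -2.67 to -2.44, that of TPD52 from -0.20 to -0.12 and that of TPD52L2 from 0.12 to 0.31. TPD52L2 was lowest without FNI replicate 2, and TPD52 and TPD52L2 passed in no alternative (adjusted p from 0.365 to 0.642 and from 0.368 to 0.756 with edgeR, limma-voom or DESeq2). The ratios of TPD52L1 to TPD52 and to TPD52L2 stayed between -2.46 and -2.32 and between -2.97 and -2.55, and that of TPD52 to TPD52L2 ran from -0.51, without FNI+I-125 replicate 3, to -0.23, without FNI replicate 2.

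The number of genes at an adjusted p under 0.05 was 884 with DESeq2 and 0 to 40 with each library left out, the 40 arising without FNI+I-125 replicate 3. At the unadjusted p it ran from 1392, without FNI+I-125 replicate 1, to 2231. The cause was not tested. Same-numbered libraries did not deviate together (r from -0.191 to 0.0519 across genes), and 0 of 6 libraries correlated best with its own number. With a replicate block, the log2 fold changes of TPD52L1, TPD52 and TPD52L2 were -2.58, -0.16 and 0.20, 0 genes passed the adjusted threshold, and the difference of the TPD52 to TPD52L2 ratio was -0.36. With 3 libraries per group, small differences of TPD52 and TPD52L2 were below what could be detected.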
